A study of Mus musculus with 6 samples.

Results

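The D-type cyclins (Ccnd1, Ccnd2 and Ccnd3), their kinase partners Cdk4 and Cdk6, the CDK inhibitors Cdkn1a (p21), Cdkn1b (p27), Cdkn1c (p57) and Cdkn2c (p18), and Txnip, an inhibitor of thioredoxin, were followed in healthy hematopoietic stem and progenitor cells (HSPCs) of mice with and without leukemia. These 10 genes were taken by symbol from the 32285 genes in the deposited count tables, and all 10 were found. They are described across the cell classes and cell cycle phases of the deposited cell table and between leukemic and control mice by library.

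HSPCs were sorted from bone marrow as CD45.1+ Lin- cKit+ Sca1+ (LSK) cells of female C57BL/6J (CD45.1) mice aged 8 to 12 weeks. The AML group had been given 1000000 cells of C1498, a murine acute myeloid leukemia line that carries CD45.2, by tail vein and without conditioning, and the PBS group had been given vehicle. Mice were sacrificed at day 21. C1498 is a single transplanted cell line, and the sorted cells are the host's own. There were 3 libraries per group, made by droplet single-cell sequencing of transcript 3′ ends with unique molecular identifiers (UMIs). The sources used here do not say whether a library was made from 1 mouse, so p-values measure only the spread between libraries.

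D-type cyclins carry growth signals into the cell cycle. They bind and activate CDK4 and CDK6, which phosphorylate the retinoblastoma protein and release E2F factors, so that a cell can pass from G1 into S phase. The INK4 inhibitor p18 blocks CDK4 and CDK6, and the CIP/KIP inhibitors p21, p27 and p57 act mainly on CDK2 complexes. In marrow, p57, p27 and p18 are known for holding stem cells in quiescence, CDK6 for setting how readily stem cells leave it, and TXNIP is known as a redox regulator that is abundant in quiescent stem cells.

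The study's cell table kept 16822 cells of 5 libraries (3 PBS, 2 AML), with 0 cells of AML replicate 2. Kept cells numbered 934 to 6838 per PBS library, 693 in AML replicate 1 and 3959 in AML replicate 3, and kept UMIs ran from 1945659 in AML replicate 1 to 32123508 in PBS replicate 1. AML replicate 1 was thus much the shallowest library, and it stood apart in its cell cycle makeup (below). The table gives each cell a class (HSC, MPP-2, MPP-3 or MPP-4, the stem cell and multipotent progenitor classes, from module scores) and a cell cycle phase (G1, S or G2M, from cell cycle scores). The 8912 cells labelled G1 were exactly those with both scores below 0, so the label does not tell quiescent cells from cells in G1. Kit and Ly6a, which encode the gate's cKit and Sca1, were present in every library, as were Ptprc (CD45) and the progenitor gene Cd34, which was not gated on. All 11 HSC markers had their highest mean level in the HSC class, as had 8 of 9 MPP-3 markers in the MPP-3 class and 6 of 9 MPP-4 markers in the MPP-4 class. Only 3 of 9 MPP-2 markers were highest in the MPP-2 class, so that name is used here as a label only. Between 0 and 12 cell barcodes were shared by any pair of libraries.

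The promoters of Cdk4, Cdk6 and Txnip are shown because Txnip and Cdk4 carried the largest fall and the steadiest rise between phases and Cdk6 is the partner kinase of Cdk4. RefSeq promoter entries on GRCm38.p6 were matched for 7 of the 10 genes, and Ccnd1, Ccnd2 and Cdkn1c had none. Each sequence is the 250 bases before the transcript start, read 5′ to 3′ on the gene's strand. Cdk4 lies at chr10:127063285-127063534, Cdk6 at chr5:3343643-3343892 and Txnip at chr3:96557707-96557956, all on the plus strand. Capitals mark CACGTG, the E-box bound by MYC and its relatives, and CCAAT or its reverse complement, the box bound by NF-Y.
Cdk4: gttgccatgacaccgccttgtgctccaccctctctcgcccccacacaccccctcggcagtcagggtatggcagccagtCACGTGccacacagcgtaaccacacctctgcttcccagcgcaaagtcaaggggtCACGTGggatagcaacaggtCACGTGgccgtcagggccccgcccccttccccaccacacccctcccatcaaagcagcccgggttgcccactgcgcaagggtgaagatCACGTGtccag
Cdk6: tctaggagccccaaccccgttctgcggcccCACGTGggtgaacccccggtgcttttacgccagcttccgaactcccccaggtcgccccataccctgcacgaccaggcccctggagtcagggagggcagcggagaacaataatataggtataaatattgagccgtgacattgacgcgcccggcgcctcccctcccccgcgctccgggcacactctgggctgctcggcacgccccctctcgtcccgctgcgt
Txnip: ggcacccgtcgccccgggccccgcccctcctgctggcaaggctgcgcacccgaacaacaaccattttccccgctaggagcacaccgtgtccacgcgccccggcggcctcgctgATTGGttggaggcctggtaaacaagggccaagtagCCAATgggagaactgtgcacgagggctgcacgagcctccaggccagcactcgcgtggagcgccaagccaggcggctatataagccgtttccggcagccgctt
The Cdk4 window held 4 copies of CACGTG, a palindrome that is counted once for both strands. Of 32851 promoter windows of this length, 6.02% held at least 1 copy and 7 windows (0.0213%) held 4 or more. The Cdk6 window held 1 copy. The Txnip window held CCAAT once on each strand, and 33.8% of all windows held it at least once on either strand. The E2F letters TTTCCCGC, TTTGGCGC, TTTCGCGC and TTTGCCGC, found in 1.86% of windows on either strand, and the CHR letters TTTGAA and TTCGAA, found in 17.1%, were in none of the windows of the 7 genes. A match of letters is a description and not a binding site.

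On GRCm38 with GENCODE M21 gene models, the genes lie on chromosomes 3 (Txnip), 4 (Cdkn2c), 5 (Cdk6), 6 (Ccnd2 and Cdkn1b), 7 (Ccnd1 and Cdkn1c), 10 (Cdk4) and 17 (Ccnd3 and Cdkn1a). Only Cdkn1b and Cdkn2c overlap no other gene model. Ccnd1, Ccnd3 and Cdk4 overlap a protein-coding gene on the opposite strand (LTO1, Bysl and Tspan31), and the other 5 overlap antisense models or, for Cdkn1a, a model of uncertain kind. The sources used here do not say whether counting used strand, so reads of such pairs may be shared.

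Levels are given as CPM, the UMIs of a gene in a summed group of cells per 1000000 UMIs of that sum. A UMI counts a molecule from its 3′ end, so no scaling by transcript length was needed to set genes side by side, although capture can differ between genes. Cdk4 and Cdk6 were the most abundant of the 10 genes over all cells. The lowest and highest libraries had 257 and 402 CPM of Cdk4, and 223 and 619 CPM of Cdk6. The D-type cyclins were led by Ccnd3 (112 to 185 CPM) and Ccnd2 (87.4 to 198 CPM), which overlapped in range, with Ccnd1 (6.91 to 22.1 CPM) far below both in every library. Among inhibitors, Cdkn1b led with 35.8 to 75.9 CPM. Cdkn2c (9.59 to 20.3 CPM), Cdkn1a (5.57 to 13.2 CPM) and Cdkn1c (1.54 to 12.4 CPM) overlapped one another. Txnip, at 58.6 to 179 CPM, overlapped Ccnd2, Ccnd3 and Cdkn1b in range.

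Levels by class are a description with no test, since the class scores came from genes of these same cells and the signatures were not available here. The HSC class was marked by more Txnip, Ccnd3, Cdkn1b and Cdkn1c and by less Cdk4, Cdk6 and Cdkn1a than the MPP classes. Txnip was 237, 355 and 200.4 CPM in HSCs of PBS replicates 1, 2 and 3, and 131 and 256 CPM in AML replicates 1 and 3. In the MPP-2 class of the same libraries it was 64.9, 100.1, 47.9, 58.8 and 49.4 CPM. HSCs were above each MPP class in 5 of 5 libraries, and the median HSC to MPP-2 ratio was 3.66.

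Cdkn1c was low outside HSCs. It was 22.1, 39.9 and 9.86 CPM in HSCs of the PBS libraries and 22.6 CPM in those of AML replicate 3, against medians of 4.05 CPM in MPP-2, 1.70 CPM in MPP-3 and 2.85 CPM for MPP-4. HSCs of AML replicate 1 comprised only 23 cells and held 0 UMIs of Cdkn1c, so this library says little. Cdkn1b was higher in HSCs than in MPP-2 and MPP-3 in 5 of 5 libraries and than in MPP-4 in 4 of 5, with a median of 65.3 CPM in HSCs and 35.8 CPM in MPP-3. Ccnd3 was highest in HSCs in 5 of 5 libraries, at a median of 212 CPM, and lowest in MPP-3 in 5 of 5, at 111 CPM. The MPP-3 class also held cells of the plasma-like cluster 6, where Ccnd3 was 19.8 to 36.7 CPM. With clusters 6, 7 and 8 left out, an alternative chosen after seeing the data, the MPP-3 median was 126 CPM and Ccnd3 was lowest there in 4 of 5 libraries, PBS replicate 2 having 157 CPM in place of 111 CPM and its lowest value in MPP-4. In that alternative the Cdkn1b median in MPP-3 was 40.8 CPM. Cdkn1b was then lowest in MPP-2 in 3 libraries and in MPP-3 in 2, where it had been lowest in MPP-3 in 4. Ccnd2 was highest in HSCs in 4 of 5 libraries, with AML replicate 1 the exception.

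Both kinases ran the other way. Cdk4 was lowest in HSCs in 5 of 5 libraries (median 229 CPM, against 369 CPM in MPP-2), and so was Cdk6 (255 CPM, against 407 CPM in MPP-2 and 414 CPM in MPP-3). With clusters 6, 7 and 8 left out both stayed lowest in HSCs in 5 of 5. Cdk6 was then highest in MPP-3 in 5 of 5 libraries, in place of 2. Cdkn1a, the p53 target p21, was also lowest in HSCs in 4 libraries, on 4 to 34 UMIs there, while the 0 UMIs in the 23 HSCs of AML replicate 1 do not place that library. Its highest median was 14.3 CPM in MPP-3. Cdkn2c was highest in MPP-2 in 4 of 5 libraries. Ccnd1 was highest in HSCs in 2 libraries and in MPP-3 in the other 3, and with clusters 6, 7 and 8 left out it was highest in MPP-3 in 4 of 5.

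**Figure D1:**
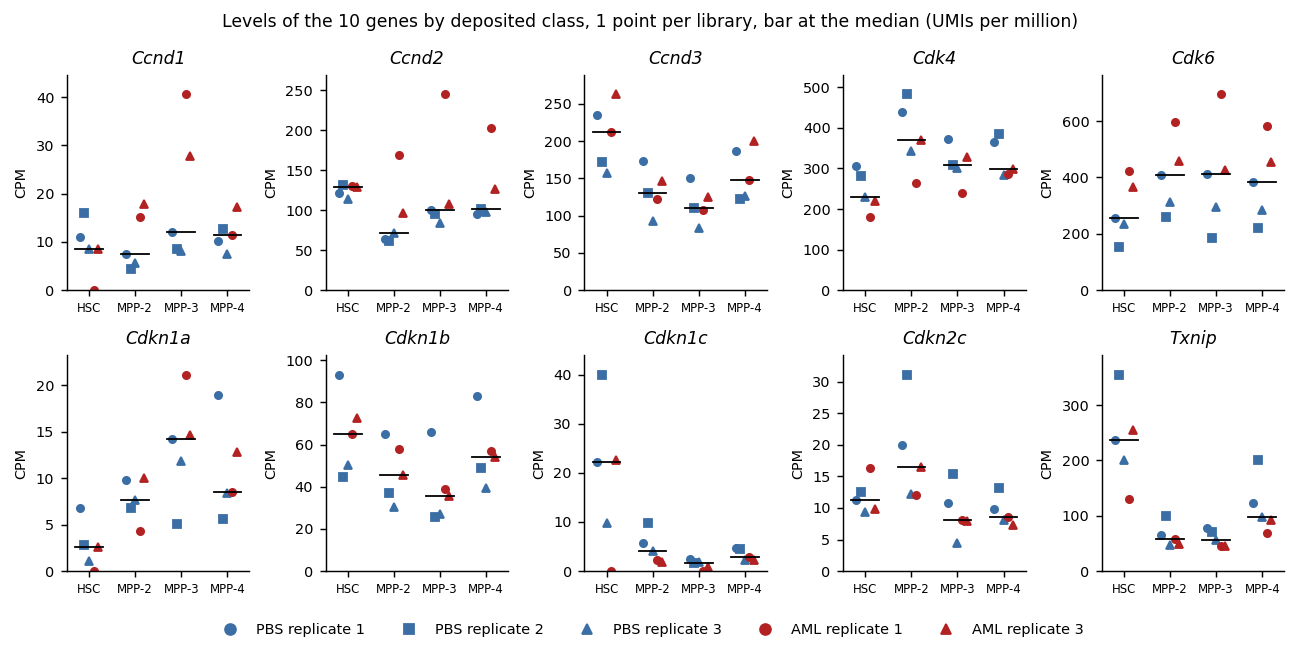
Level in CPM (y axis, from 0) of each gene in the 4 deposited classes (x axis), with 1 point per library (blue, PBS; red, AML) and a bar at the median. Txnip, Ccnd3 and Cdkn1c lie highest in HSCs, with the AML replicate 1 point of Cdkn1c at 0, while Cdk4 and Cdk6 lie lowest there.

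The classes differ in cell cycle. G1 cells were 56.5% to 87.9% of the HSC class in each library and 6.06% to 12.9% of the MPP-2 class. Levels were therefore also read in G1 cells alone, in sums of at least 20 cells. Of the 3 libraries with every class so represented (PBS replicates 1 and 3, AML replicate 3), Txnip, Cdkn1b, Cdkn1c and Ccnd3 were highest in HSCs in 3 of 3 and Cdk6 lowest in HSCs in 3 of 3. In G1 cells of these 3 libraries Txnip was 267, 224 and 278 CPM in HSCs and 180.5, 128 and 132 CPM in MPP-2. Only 2 of the 3 had their lowest Cdk4 in HSCs. In PBS replicate 3 it was 195 CPM in MPP-3 and 207 CPM in HSCs. Cdk4 was 41.9 to 54.2 CPM in the plasma-like cluster 6, and the order in G1 cells was not read without that cluster.

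The members were then compared between phases within libraries, with edgeR's quasi-likelihood test, a term for each library, and Benjamini-Hochberg adjustment over all genes tested. The deposited phases came from S and G2M scores, and which genes the authors scored is not known here. Seurat's own lists hold 43 S and 54 G2M genes, and 0 of the 10 members are on them. In S cells, Cdk4, Cdk6, Ccnd1, Cdkn1a and Cdkn2c were higher and Txnip, Cdkn1c, Cdkn1b and Ccnd3 lower than in G1 cells, and Ccnd2 did not pass the test. That is 5 members higher and 4 lower, where 30.0% of all 12236 genes tested were called higher and 31.1% lower. In G2M cells, Cdkn2c, Cdk4, Cdk6 and Cdkn1a were higher and Txnip, Cdkn1c, Ccnd2 and Ccnd3 lower, with 28.4% of all genes called higher and 29.2% lower. The median log2 difference over the members was 0.23 in S and -0.08 in G2M, beside -0.04 and -0.05 over all genes. Because the scores came from RNA of these same cells, the phase calls and the tested levels are not independent.

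Ccnd1 was highest in S cells, whereas Ccnd3 was highest in G1 in 5 of 5 libraries and Ccnd2 in 4 of 5. Ccnd1 was 8.99, 11.6, 6.07, 14.5 and 14.7 CPM in G1, 15.4, 13.5, 11.4, 35.7 and 27.1 CPM in S, and 4.42, 2.20, 3.60, 15.6 and 17.5 CPM in G2M. It was highest in S in 5 of 5 libraries, and the log2 difference of S from G1 was 0.93 ± 0.17 (adjusted p = 2.35e-05). By class, AML replicate 3 had less in S than in G1 in HSCs (6.36 against 9.36 CPM) and MPP-2 (16.9 against 28.0 CPM). AML replicate 1 had less in MPP-4 (0 against 32.1 CPM). Every other class and library with both sums had more Ccnd1 in S. In G2M, summed over classes, the PBS libraries fell below their own G1 level and the AML libraries did not. In the PBS libraries alone the difference of G2M from G1 was -0.95 (adjusted p = 0.000434), and over all 5 libraries it was -0.23 ± 0.19 (adjusted p = 0.31). By class, it passed as lower in MPP-4 (-1.34, adjusted p = 0.00324) and did not pass in MPP-2 (-0.63, adjusted p = 0.208) or MPP-3 (0.70, adjusted p = 0.112). Within MPP-2 both AML libraries had less Ccnd1 in G2M (10.1 and 17.4 CPM) than in G1 (16.6 and 28.0 CPM), and so they had within MPP-4 (6.82 and 5.47 CPM against 32.1 and 16.0 CPM). Within MPP-3 they had more, at 33.6 and 27.6 CPM against 0 and 12.8 CPM. In AML replicate 1 the G1 values rest on 0 to 3 UMIs. MPP-3 cells were 101 of 363 and 169 of 956 G2M cells in AML replicates 1 and 3, and 84 of 1317, 2 of 171 and 47 of 875 in the PBS libraries, so the makeup of G2M cells by class differed. Ccnd2 did not pass in S (0.06 ± 0.07, adjusted p = 0.455), and that value turned to -0.10 with library size scaling. Within single classes it was lower in S in MPP-2 (-0.41, adjusted p = 0.00709) and higher in MPP-4 (0.33, adjusted p = 5.07e-05), and the difference between classes was not tested. In G2M it fell by 0.47 ± 0.07 (adjusted p = 4.26e-06). Ccnd3 fell by 0.27 ± 0.07 in S (adjusted p = 0.0013) and 0.38 ± 0.07 in G2M (adjusted p = 3.42e-05), lower in 5 of 5 libraries both times. Its fall in S passed within each of the 4 classes. In the PBS libraries alone Ccnd3 did not pass in S (adjusted p = 0.0759).

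Cdk4 had the steadiest rise of the kinases. It went from 296, 290.5, 232, 235 and 240.3 CPM in G1 to 480.2, 529, 375, 260.4 and 385 CPM in S, in the same order of libraries, and rose in each. The log2 difference was 0.86 ± 0.05 in S (adjusted p = 2.53e-14) and 0.69 ± 0.05 in G2M (adjusted p = 2.77e-12), and in S it passed within each of the 4 classes. Cdk6 rose by 0.46 ± 0.05 in S (adjusted p = 1.37e-08) and 0.51 ± 0.05 in G2M (adjusted p = 2.35e-09). It did not pass within MPP-2 (-0.02 in S and 0.00 in G2M) or MPP-3 (0.16 and 0.15), and did within MPP-4 in both phases and within HSC in S. For HSCs in G2M only PBS replicate 1 had 20 cells, so its difference (0.72, 67 UMIs in G2M) has no replicate, and the fit took its spread from the G1 and S sums.

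The inhibitors split. Cdkn1b, or p27, whose protein is cleared as cells enter S phase, fell in RNA from 89.2, 46.4, 42.5, 47.1 and 61.3 CPM in G1 to 52.4, 29.0, 21.4, 40.3 and 30.0 CPM in S, lower in 5 of 5 libraries. The log2 difference was -0.69 ± 0.07 (adjusted p = 1.42e-09), and it passed in S within each of the 4 classes. In G2M cells Cdkn1b was back at 40.7 to 80.7 CPM, with a difference from G1 of 0.07 ± 0.06 that did not pass (adjusted p = 0.386). Cdkn1c fell in both phases, by 0.94 ± 0.18 in S and 1.12 ± 0.18 in G2M on the log2 scale (adjusted p = 5.05e-05 and 9.28e-06). Within HSCs alone, where Cdkn1c was highest, it fell in S (-1.40, adjusted p = 0.000133), and in G2M the difference was 0.10 ± 0.68 (adjusted p = 0.977). That G2M value rests on 5 UMIs of PBS replicate 1, the only library with 20 HSCs in G2M. In MPP-2 Cdkn1c did not pass in either phase (-0.76 in S and -1.01 in G2M), and in MPP-3 and MPP-4 it was not tested. HSCs were mostly G1 cells, so the makeup by class differed between phases, and its part in these values was not tested.

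Cdkn2c, or p18, rose most in G2M. It was 9.43, 12.9, 7.88, 3.62 and 7.65 CPM in G1 and 22.7, 36.6, 13.1, 14.6 and 16.6 CPM in G2M, so that each G2M value was above all G1 values. The log2 difference was 1.35 ± 0.11 in G2M (adjusted p = 1.71e-11) and 0.40 ± 0.12 in S (adjusted p = 0.00549). Within single classes its rise passed in G2M in MPP-2 (0.98) and MPP-3 (1.01), and in S in none of the 4. The S call over all cells ended without PBS replicate 1 (adjusted p = 0.058) and with scaling by library size (0.0855). Cdkn1a rose by 0.78 ± 0.15 in S (adjusted p = 4.66e-05), higher in 5 of 5 libraries. Its rise in G2M (0.41 ± 0.16, adjusted p = 0.0279) did not pass without AML replicate 3 (0.313), without PBS replicate 3 (0.178) or with library size scaling (0.218).

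Txnip fell most of the 10 genes. It was 182, 275 and 144 CPM in G1 cells of the PBS libraries and 130.4 and 144 CPM in those of AML replicates 1 and 3. In S cells of the same libraries it was 64.1, 94.96, 48.4, 38.8 and 42.2 CPM. The ranges of G1 and S did not overlap. The log2 difference was -1.44 ± 0.05 (SE) in S (adjusted p = 4.01e-18) and -1.31 ± 0.05 in G2M (adjusted p = 1.68e-17). Within single classes, Txnip fell in S in 4 of 4 classes and in G2M in 3 of 4, the exception being HSCs (-0.34, adjusted p = 0.564), where G2M was again measured in PBS replicate 1 alone.

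**Figure D2:**
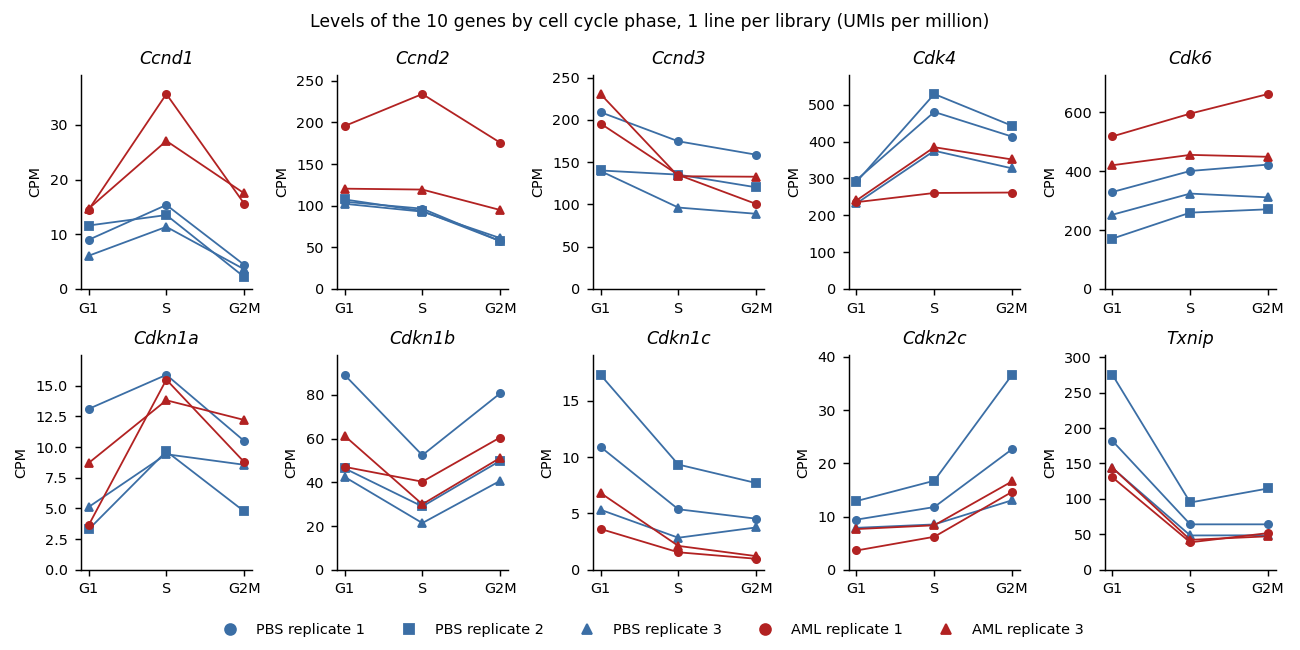
Level in CPM (y axis, from 0) of each gene in G1, S and G2M cells (x axis), with 1 line per library (blue, PBS; red, AML). Txnip lines drop after G1, Cdk4 lines rise in S, Cdkn1b lines dip in S, and Ccnd1 lines of the AML libraries end above those of the PBS libraries.

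Scaling bears on these values. With library size alone in place of TMM normalization, the median log2 difference over all genes moved by -0.16 in S and -0.18 in G2M, and the share of called genes that were higher went from 49.1% to 33.1% in S and from 49.3% to 28.8% in G2M. Median UMIs per cell were 2302.5 to 7863.5 in G1 and 2410 to 15936 in G2M across libraries. With each cell thinned to 2000 UMIs, the same 9 members passed in S. In G2M Cdkn1a no longer passed (adjusted p = 0.125) and Ccnd1 passed as lower (-0.62, adjusted p = 0.0401). G1 sums also held more B and plasma cell marker RNA, 1992 to 4416 CPM over 7 genes, against 66.4 to 201.1 CPM in G2M. With clusters 6, 7 and 8, one of them plasma-like, left out, 9 members passed in S and 8 in G2M as before.

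**Figure D3:**
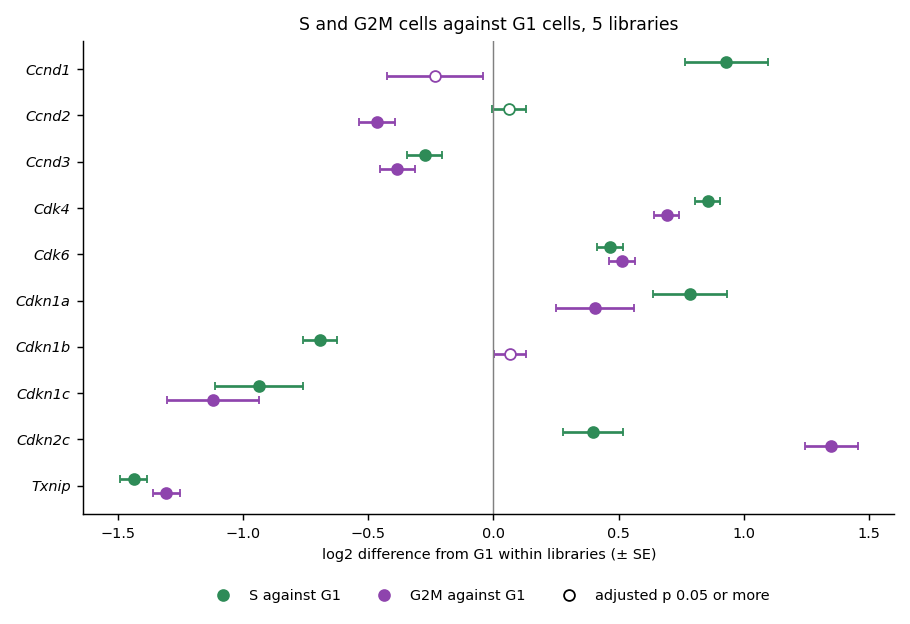
Fitted log2 difference of S (green) and G2M (purple) cells from G1 cells (x axis) for each gene (y axis), with bars of 1 SE and open points where the adjusted p is 0.05 or more. Txnip lies farthest left in both phases, and Cdkn2c in G2M farthest right at 1.35.

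Partner genes of the pathway were counted by the same test. Of 29 other genes of the G1/S network, 27 were tested, and 20 rose and 4 fell in S, with a median log2 difference of 0.69, beside 30.0% of all genes higher and 31.1% lower. Ccne2, E2f8 and Cks1b are among the 27 and are on Seurat's phase lists, so their rise is no finding. Phases were called from RNA of these same cells, so the p-values of genes off the lists are not independent of the call either. E2f1, the S phase transcription factor, rose by 2.64 ± 0.10 (adjusted p = 6.68e-18), its partner Tfdp1 by 1.34 ± 0.06 (adjusted p = 2.88e-17) and Ccna2, the S and G2 cyclin, by 4.97 ± 0.21 (adjusted p = 5.64e-17). Ccne2 was at 4.26 and Cks1b at 1.92. In G2M 16 of the 27 rose and 4 fell, beside 28.4% and 29.2% of all genes. There the leading genes were Ccna2 (6.85), Cks1b (2.65, on the G2M list), the INK4 inhibitor Cdkn2d (1.34 ± 0.06, adjusted p = 1.59e-16) and the E2F repressors E2f8 (3.70, on the S list) and E2f7 (3.71).

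Of 15 p53 target genes, 13 were tested, and 5 rose and 7 fell in S, with a median of -0.32, beside 30.0% of all genes higher, 31.1% lower and a median of -0.04. Trp53inp1 (-2.21 ± 0.14, adjusted p = 1.48e-13), Plk2 (-1.51) and Btg2 (-1.08), an antiproliferative gene, fell, and Aen (0.70) and Bax (0.51), both of the death pathway, rose. In G2M, where 28.4% of all genes rose and 29.2% fell, 3 rose and 7 fell, among them Trp53inp1 (-1.32), Plk2 (-1.39), Btg2 (-0.76) and Bbc3 (-1.10), which encodes PUMA. Gtse1 rose (4.59) but is on the G2M list. Of the 6 tested genes related to Txnip, Txn1, which encodes the thioredoxin that TXNIP inhibits, rose by 0.82 ± 0.04 in S (adjusted p = 1.13e-15) and 0.92 ± 0.04 in G2M (adjusted p = 6.47e-17). Arrdc4, a paralog of Txnip, fell by 1.02 ± 0.15 in S (adjusted p = 1.16e-06) and 0.76 ± 0.14 in G2M (adjusted p = 5.73e-05). In S, Arrdc3 (-0.60) and Mlxip (-0.28) fell and Txnrd1 (0.21) rose. In G2M, Arrdc3 (0.34) and Mlx (0.28) rose.

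The comparison of AML with PBS asked whether the G1 machinery of healthy HSPCs differs in the leukemic marrow. Over all cells 0 of 10 members passed with edgeR, where 23 of 14364 genes (0.160%) did. At an unadjusted p under 0.05 there were 5, with Ccnd1, Ccnd2 and Cdk6 higher and Cdkn1c and Txnip lower, beside 1511 of the 14364 genes. DESeq2 called 1 member, Ccnd1, and limma-voom 0. In those 5 members the ranges of the PBS and AML libraries did not overlap, which held for 29.7% of all genes. A sum over cells cannot tell more cells with a transcript from more transcripts per cell.

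Ccnd1 was 9.59, 9.71 and 6.91 CPM among PBS libraries (308, 101 and 157 UMIs) and 22.1 and 19.6 CPM in AML replicates 1 and 3 (43 and 542 UMIs). Both AML libraries were above all PBS libraries, with means of 8.73 ± 1.58 CPM for PBS (SD, n = 3) and 20.9 ± 1.74 CPM for AML (SD, n = 2). The log2 difference was 1.22 ± 0.23 (SE), with an adjusted p of 0.0547 from edgeR that lay just over the threshold. It was 0.0115 with DESeq2, 0.0321 with an own filter on the barcodes of all 6 libraries, 0.449 with cells thinned to 2000 UMIs (log2 difference 0.78) and 0.198 with cluster 4 left out (1.04). Without AML replicate 3 both Ccnd1 (1.35, adjusted p = 0.0396) and Ccnd2 (1.15, adjusted p = 0.0324) passed, in a fit that called 419 of 14185 genes in place of 23.

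Ccnd2 was 89.0, 90.3 and 87.4 CPM in PBS, against 198 and 112 CPM in AML, with a log2 difference of 0.76 ± 0.27 (adjusted p = 0.333 with edgeR). AML replicate 3 lay nearer to the PBS libraries than to AML replicate 1. Cdk6 was 377, 223 and 290.5 CPM in PBS and 619 and 441 CPM in AML (0.82 ± 0.28, adjusted p = 0.329). Txnip was 114, 179 and 87.8 CPM in PBS and 58.6 and 79.0 CPM in AML (-0.89 ± 0.30, adjusted p = 0.321). Cdkn1c had 240, 129 and 94 UMIs in PBS, or 7.47, 12.4 and 4.13 CPM, and 3 and 95 UMIs in AML, or 1.54 and 3.44 CPM (-1.39 ± 0.44, adjusted p = 0.286). The other 5 members overlapped between groups, and their log2 differences ran from -0.46 for Cdkn2c to 0.31 for Cdkn1a.

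AML replicate 2 has no cells in the study's table. Under the own filter it held 106 cells and 306059 UMIs. Its Ccnd2 was 167 CPM (95% exact Poisson interval 124 to 219) and its Cdk6 559 CPM (478 to 649), both above the PBS libraries under the same filter, which reached 91.8 and 386 CPM. Its Txnip, at 88.2 CPM (58.1 to 128), lay within the PBS range of 85.4 to 174 CPM, unlike that of AML replicates 1 and 3. Its Cdk4, at 464 CPM (391 to 547), was above the PBS libraries (312 to 414 CPM), whereas AML replicates 1 and 3 had 253 and 325 CPM. Its Ccnd1 rested on 6 UMIs, at 19.6 CPM (7.19 to 42.7). Intervals cover counting error only.

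**Figure D4:**
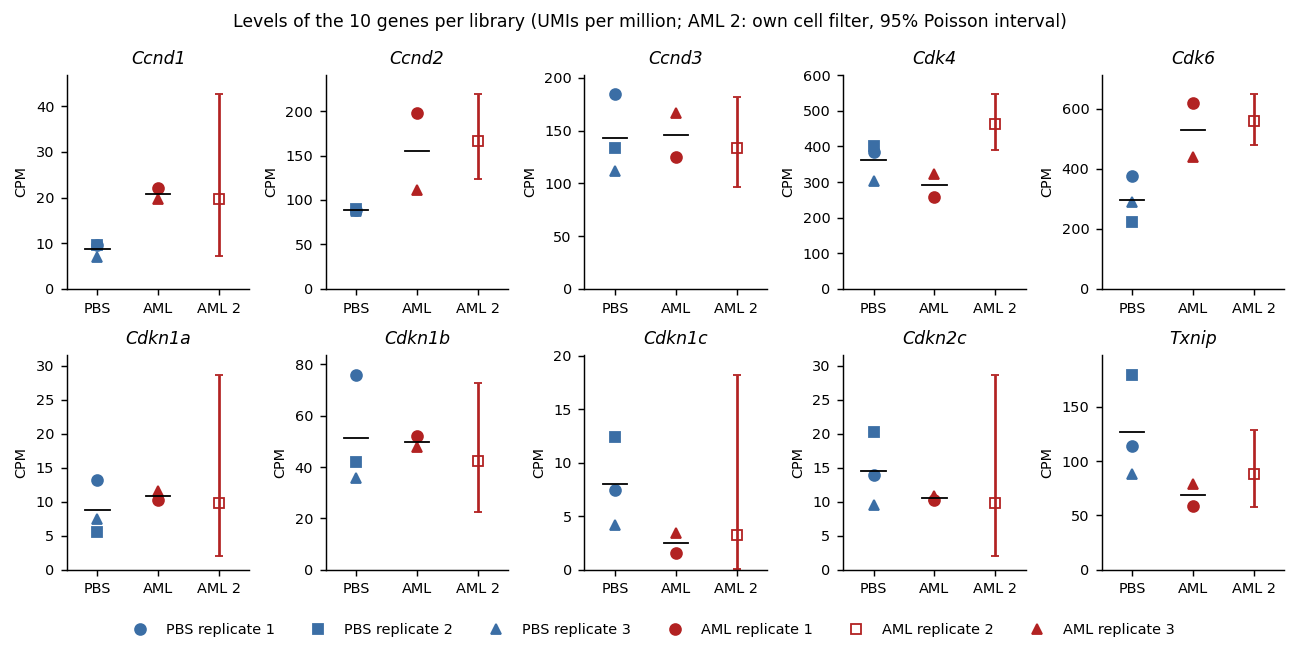
Level in CPM (y axis, from 0) of each gene over all cells of the study's table in the PBS and AML libraries, with a bar at each group mean, and in AML replicate 2 under the own filter (open square, 95% Poisson interval). Ccnd1, Ccnd2 and Cdk6 lie higher, and Cdkn1c and Txnip lower, in AML replicates 1 and 3 than in every PBS library.

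The makeup of cells moved with these values. G1 cells were 56.6%, 58.2% and 55.9% of the PBS libraries, 14.7% of AML replicate 1 (95% exact Clopper-Pearson interval 12.2% to 17.6%) and 49.0% of AML replicate 3 (47.4% to 50.6%). The mean difference was -25.0 percentage points, and the two-sided exact permutation p over 5 libraries was 0.1, the smallest that 3 against 2 allows. It was -7.90 points without AML replicate 1 and -42.2 points without AML replicate 3. AML replicate 1 kept 693 of 8781 barcodes, and the lowest kept cell of the 5 libraries had 1801 UMIs. Its G1 cells had a median of 2302.5 UMIs and its G2M cells 2410, against 4380.5 and 8856.5 in AML replicate 3. Whether a depth cutoff lowered its G1 share was not tested. The 9 MPP-3 markers summed to 818 to 1383 CPM in the PBS and 1883 to 1911 CPM in the AML libraries, and cluster 4 held 2.46% to 3.41% of PBS and 9.57% and 11.1% of AML cells. The 8 markers of monocytes and neutrophils, of which 7 were detected in every library, summed to 79.4 to 137 CPM in PBS and 64.8 to 91.3 CPM in AML. With phases weighted equally, the Ccnd1 difference was 1.20 (adjusted p = 0.127, limma on log2), and with classes weighted equally 0.84 (adjusted p = 0.43). With cluster 4 left out it was 1.04, as given above. The part of the marker sums in the differences was not tested.

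Within single classes no member passed with edgeR, where 0.178% of genes did in HSC, 0.0399% for MPP-2, 0.0486% for MPP-3 and 0.0325% for MPP-4. At an unadjusted p under 0.05 there were 1, 4, 3 and 4 members in these classes, beside 444 of 10668, 946 of 12518, 761 of 10294 and 730 of 12305 genes, and DESeq2 called 0 in each, giving Ccnd1 in MPP-2 no adjusted p. Ccnd1 came nearest. In MPP-2 it was 7.53, 4.37 and 5.60 CPM in PBS and 15.2 and 17.9 CPM in AML (1.46 ± 0.28, adjusted p = 0.0743). In MPP-3 it was 12.1, 8.51 and 8.17 CPM in PBS and 40.6 and 27.8 CPM in AML (1.60 ± 0.33, adjusted p = 0.0773). The MPP-3 class also held B and plasma cell marker RNA at 6916 to 23100 CPM in PBS and 2094 to 2876 CPM in AML, and with clusters 6, 7 and 8 left out, an alternative chosen after seeing the data, Ccnd1 passed there (1.61, adjusted p = 0.0442). In HSCs the PBS libraries had 11.1, 16.0 and 8.45 CPM, AML replicate 3 had 8.54 CPM, and the 23 HSCs of AML replicate 1 had 0 UMIs of Ccnd1 among 61292 in all, too few to place that library. Cdk6 was 0.63 to 0.76 higher in AML on the log2 scale in each of the 4 classes, without passing.

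Whether the AML difference itself varied between classes was tested with class-by-group terms. Of 12734 genes, 0.872% passed, and Ccnd1 was the 1 member that did (adjusted p = 0.0205). AML replicate 1 held only 23 HSCs, and the fitted AML difference of Ccnd1 was larger than in HSCs by 1.97 ± 0.41 in MPP-2 on the log2 scale, by 1.98 ± 0.42 in MPP-3 and by 1.29 for MPP-4. The call ended without AML replicate 3 (adjusted p = 0.522) and, narrowly, without PBS replicate 1 (0.0504), and held without AML replicate 1 (0.0446). With clusters 6, 7 and 8 left out the adjusted p was 0.0093. Of the network list, Ccna2 passed the same test (adjusted p = 0.0111), and of the p53 and Txnip-related lists 0 genes did, with 2 of each at an unadjusted p under 0.05, as had 1383 of all genes.

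Within phases, Ccnd1 passed in G2M cells and no other member passed in any phase. The percent of genes called was 0.139% in G1, 0.264% in S and 0.236% in G2M. At an unadjusted p under 0.05 there were 2 members in G1 and 5 in S, beside 690 of 12963 and 955 of 12119 genes, and DESeq2 called 0 members in both. In G2M cells Ccnd1 was 4.42, 2.20 and 3.60 CPM in PBS (40, 6 and 24 UMIs) and 15.6 and 17.5 CPM in AML (16 and 159 UMIs). Both AML libraries lay more than 3 times above the highest PBS library. The log2 difference was 2.18 ± 0.31 (adjusted p = 0.00877). It was 1.13 in S (adjusted p = 0.0733) and 0.66 in G1 (adjusted p = 0.93). In G2M the call ended without AML replicate 3 (adjusted p = 0.0722), where Ccnd2 passed in its place (1.53, adjusted p = 0.019). In S cells Ccnd2 also passed without AML replicate 3 (1.27, adjusted p = 0.024). Cluster 4 of the deposited clustering, left out as an alternative chosen after seeing the data, made up 1.75% to 4.91% of G2M cells in PBS and 9.92% and 15.3% in AML, and with it left out Ccnd1 differed by 1.93 ± 0.34 (adjusted p = 0.0572). In MPP-2 cells of the G2M phase alone it differed by 2.12 (adjusted p = 0.0264), and in MPP-3 cells by 2.32 (0.161).

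The test of whether the AML difference varied between phases was passed by 0.461% of 13244 genes and by 2 members. Ccnd1 (adjusted p = 0.0275) differed more in G2M than in G1 by 1.40 ± 0.29, and in S by 0.29. These sums pool the classes. Within MPP-2, Ccnd1 was also higher in AML among G1 cells, at 16.6 and 28.0 CPM against 8.20 and 5.45 CPM in PBS replicates 1 and 3, as it was within MPP-4 (32.1 and 16.0 CPM against 6.26 to 11.0 CPM). Within MPP-3 the G1 values of AML (0 and 12.8 CPM) and PBS (0 to 10.1 CPM) overlapped. Within HSCs AML replicate 3 had 9.36 CPM in G1, inside the PBS range of 7.56 to 15.9 CPM, and AML replicate 1 had too few cells. Whether the AML difference varied between phases within a class was not tested. Ccnd2 (adjusted p = 0.0216) differed more in G2M than in G1 by 0.52 ± 0.10, and in S by 0.22. Ccnd2 was 57.5, 57.5 and 61.1 CPM in G2M cells of PBS and 176 and 94.8 CPM in those of AML, against 105, 107, 102, 196 and 120.4 CPM in G1. Both calls ended without AML replicate 3 (adjusted p = 0.822 and 0.536) or without PBS replicate 1 (0.187 and 0.258), and that of Ccnd2 without AML replicate 1 (adjusted p = 0.0761). With cluster 4 left out Ccnd1 did not pass (0.217) and Ccnd2 did (0.0372).

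**Figure D5:**
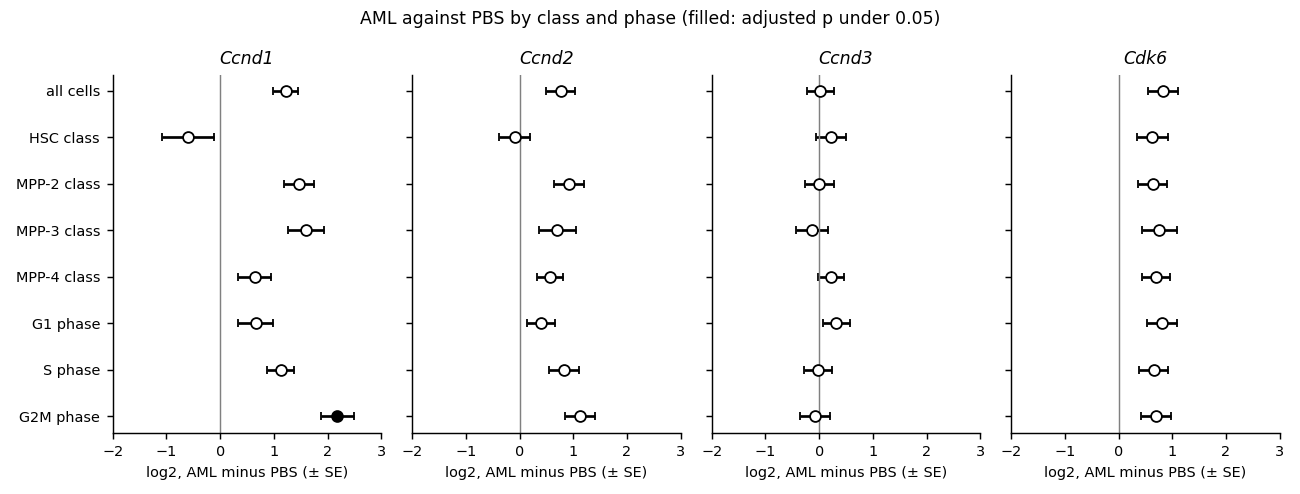
Fitted log2 difference of AML from PBS (x axis) with bars of 1 SE, for Ccnd1, Ccnd2, Ccnd3 and Cdk6 over all cells, in each class and in each phase (y axis), filled where the adjusted p is under 0.05. The Ccnd1 point in G2M, at 2.18, is the only filled point, and the HSC point of Ccnd2 changes sign with library size scaling (-0.09 to 0.086).

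The mix of paralogs was read as shares of UMIs, as a description. Ccnd1 made up 3.35% to 4.16% of D-type cyclin UMIs in the PBS and 6.40% and 6.59% in the AML libraries. Cdk6 made up 49.5%, 35.7% and 49.0% of the UMIs of Cdk4 and Cdk6 in PBS and 70.6% and 57.7% in AML replicates 1 and 3. This order held in each class. The share ran from 35.5% to 50.6% in PBS and 62.5% to 70.3% in AML in HSCs, from 35.0% to 48.2% and 55.4% to 69.3% in MPP-2, from 37.6% to 52.5% and 56.5% to 74.3% in MPP-3, and from 36.5% to 51.3% and 60.5% to 67.1% in MPP-4. It also held in each phase. In AML replicate 2 under the own filter the share was 54.6% (exact Clopper-Pearson interval 48.9% to 60.2%), against at most 49.8% in PBS.

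The genes whose log2 CPM followed each member most closely over the 20 sums of library and class were found among 12734 genes, and these sums share libraries and depth, so the coefficients are descriptions. Txnip was most like Eya2 (Pearson's r = 0.937), Nkx2-3 (0.915) and A630072M18Rik (0.914). Cdkn1c was most like Bgn (0.926), Foxa3 (0.922) and Ecscr (0.917). Cdk6 was nearest to Mcmbp (0.935), Cbx5 (0.927) and Supt16 (0.922), and Cdk4 to Pgk1 (0.929), Srsf3 (0.926) and Dynll1 (0.925). For the cyclins the nearest genes were Pla2g15 (0.927), Adam15 (0.901) and Ccdc57 (0.899) for Ccnd1, Ddx54 (0.884), Gmip (0.870) and Tsc22d4 (0.867) for Ccnd2, and Zfp36l2 (0.918), Luc7l2 (0.909) and Slc25a36 (0.908) for Ccnd3. For the remaining inhibitors they were Erp29 (0.880), Raet1e (0.864) and Tpm4 (0.858) for Cdkn1a, Rnf138, Gm19522 (both 0.917) and Pcf11 (0.913) for Cdkn1b, and Cenpl (0.817), Tubb4b (0.808) and Eif4e (0.788) for Cdkn2c.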

How the data were processed

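Droplet single-cell libraries were made from sorted HSPCs of 3 PBS and 3 AML samples. Per the labels, the authors used Cell Ranger 7.0.1, R 4.2.2 and Seurat 4.3.0 with GRCm38/mm10. The deposited count tables hold raw UMI counts per gene and cell, and the deposited cell table holds the authors' cell cycle score and module score per cell, with phase, class and cluster. The sources used here give no cell filters or doublet handling, and 17 columns of the cell table were not used.

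Counts of kept cells were summed per library, class or phase (at least 20 cells). AML replicate 2, with 0 kept cells, entered only the own filter (at least 1000 genes, at most 10% mitochondrial UMIs). Sums were tested with edgeR 4.0.16 (quasi-likelihood, TMM, filterByExpr, Benjamini-Hochberg threshold 0.05), with DESeq2 1.42.0 and limma 3.58.1 as alternatives. The edgeR fits were tested on simulated data. All 10 members were named in every comparison. Of the other lists, at most the 5 called genes with the lowest p were named, and for likeness the 3 nearest genes. The members and lists were chosen with earlier results of these data known.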

Additional observations from a re-analysis of the deposited data

Results flagged for a closer look

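Ccnd1 differed between AML and PBS by an amount that varied across classes, by a test of the class-by-group terms in edgeR (adjusted p = 0.0205). It also varied across phases (adjusted p = 0.0275), as did Ccnd2 (adjusted p = 0.0216). All 3 calls were lost without AML replicate 3, where the adjusted p was 0.522 for Ccnd1 by class, 0.822 for Ccnd1 by phase and 0.536 for Ccnd2 by phase. With cluster 4 left out, Ccnd1 by phase did not pass either (0.217).

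AML replicate 2 has no cells in the deposited cell table and enters none of the comparisons above except the own filter. Under that filter it held 166.6 CPM of Ccnd2 and 558.7 CPM of Cdk6, both above each of the 3 PBS libraries. It also held 464 CPM of Cdk4, above each PBS library and above AML replicates 1 and 3, and 88.2 CPM of Txnip, within the PBS range of 85.4 to 174 CPM.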

How the results depend on the processing

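The AML comparisons rest on 3 PBS and 2 AML libraries, of which AML replicate 1 was shallow. With 1 AML library left, its spread was taken from the PBS libraries.

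Over all cells DESeq2, the replicate block and the own filter called 1 member each (Ccnd1), among 79, 91 and 75 genes in all, and testing without a filter on low counts called 3, among 392 of 21591 genes, where the reported fit called 23. In single classes library size scaling called 1 member in MPP-2 and 1 in MPP-3 (26 and 84 genes in all), no filter called 2 and 1 (156 and 166), and leaving out clusters 6, 7 and 8 called 1 in MPP-3 (14). No filter called 1 in S and 3 in G2M (174 and 239). In G2M 0 members passed with cluster 4 left out, in MPP-3 cells alone or in MPP-4 cells alone (Ccnd1 was not tested there), and by edgeR 0, 11 and 0 genes in all passed in these fits. By phase, 1 member passed with cluster 4 left out. In MPP-3 alone 5 members passed in S, where 3225 genes did. In G2M 1 passed in HSC (Cdk6), where 352 genes did with G2M measured in 1 library and the spread taken from the G1 and S sums, and 5 in each MPP class, where 2526, 2163 and 2451 genes did, against 7473 in S and 7053 in G2M over all cells. Leaving out 1 library gave 0 to 2 members over all cells, 0 to 1 in S, 0 to 1 for the AML difference by class, 0 to 3 by phase, 8 to 9 for S against G1 and 7 to 8 for G2M against G1.

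The sample numbers were not taken as pairs. Deviations of same-numbered PBS and AML libraries correlated at -0.10 and -0.13. With 2 AML libraries their deviations mirror each other, so the crossed pairs gave 0.10 and 0.13. These values therefore cannot decide on pairing. With the replicate block, 91 genes were called over all cells in place of 23, Ccnd1 passed there (1.34, adjusted p = 0.00885) and in MPP-3 (1.70, adjusted p = 0.0164), and the other AML comparisons kept their count of members.

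These differences changed sign. Between AML and PBS over all cells Ccnd3 was -0.0046 with no filter, -0.0028 with the block, -0.012 with the own filter, -0.18 without AML replicate 3 and -0.07 without PBS replicate 3. Cdkn1a was -0.0069 when thinned. Cdkn1b was 0.012 with limma-voom, 0.038 without AML replicate 3, 0.30 without PBS replicate 1, and 0.15 and 0.022 with classes or phases weighted equally. In HSCs Ccnd2 was 0.086 with library size scaling, and Cdkn1c was 0.72 with the block and 0.28 without PBS replicate 2. Between phases the turns included values that had passed. For S against G1, Ccnd2 was -0.10 with library size scaling, -0.043 without AML replicate 3, -0.033 when thinned, -0.41 in MPP-2 and -0.11 in MPP-3, Cdk6 (0.46 over all cells) was -0.020 in MPP-2 and Cdkn2c (0.40) was -0.31 in HSC. For G2M against G1, Ccnd1 was 0.70 in MPP-3, Cdkn1a (0.41 over all cells) -0.075 and Cdkn1c (-1.12) 0.10 in HSC, and Cdkn1b -0.11 with library size scaling, -0.055 when thinned and -0.095 in MPP-3. The causes were not tested. Leaving out 1 library moved these differences over -0.18 to 0.20 (Ccnd3) and -0.20 to 0.30 (Cdkn1b) over all cells, -8.88 to 0.28 (Cdkn1c) in HSC, and -0.04 to 0.10 (Ccnd2) for S against G1.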
